A study of Danio rerio with 12 samples.

Results

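The protocadherin genes were taken as every row of the count tables whose Ensembl identifier is paired with a zebrafish symbol beginning with pcdh, in upper or lower case. They were 58 of 31778 genes. By symbol, 21 belong to the pcdh1 cluster and 14 to the pcdh2 cluster, and pcdha8l is clustered by its name alone, so that 36 genes were counted as clustered and 22 as other protocadherins. The gene pcdhb was counted with the others, although pcdha8l lies close to it in the RefSeq gene order.

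Protocadherins are single-pass membrane proteins of the cadherin superfamily that carry cadherin repeats outside the cell and mediate adhesion and recognition between cells, above all in the nervous system. In a protocadherin cluster, each variable exon holds its own promoter and encodes the whole extracellular part and the membrane span, and is spliced to constant exons that all genes of a subcluster share. Neurons express a few variable exons each, chosen with the help of CTCF and cohesin, and the resulting set marks the identity of the cell. The other protocadherins are single genes with individual roles, among them neural circuit assembly in zebrafish (pcdh19) and the tip links of sensory hair cells (pcdh15). As membrane proteins, all of them are made on ribosomes at the endoplasmic reticulum.

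RNA was measured in whole zebrafish larvae of strain AB at 5 dpf, WT and chchd4a-/- (mia40a -/- in the sample labels), pooled for homogenization. Every group carried the transgene Tg(Xla.Eef1a1:mlsEGFP)cms1, which drives a mitochondrial EGFP from a frog promoter. WT larvae came from crosses of mia40a+/+ fish. Mutants came from crosses of heterozygotes and were picked under a fluorescence microscope at 4 dpf, so that the genotypes also differ in parents and in sorting. After nuclei and debris were removed at 1500 g, the pellet at 14000 g was the membrane-bound (MB) fraction. It holds mitochondria and endoplasmic reticulum with their ribosomes. The pellet at 100000 g was the high-speed (HS) fraction. The paper reports that HS also held part of the endoplasmic reticulum with its ribosomes, along with free polysomes. A value on the HS side therefore does not place an mRNA away from the endoplasmic reticulum. Each fraction of each genotype gave 3 libraries, which makes 12. The study compared MB with HS within each genotype to learn which mRNAs lie at membranes, and the mutant, in which mitochondrial protein import is impaired, with WT.

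Gene counts summed to between 45621537 and 96059916 per library. WT HS replicate 1 stood apart, with 30.0% of its counts in spike-ins. The mRNA of chchd4a itself, the mutated gene, was at 3.80 to 12.45 CPM in WT HS and 11.35 to 27.02 CPM in mutant HS, and at 4.57 to 5.46 and 6.68 to 8.18 CPM in MB, so that its level did not check the genotype labels. Levels are given in CPM, the share of a library's counts that a gene takes, on library sizes scaled by TMM. They are not divided by gene length, so they compare libraries and not genes. A gene was tested in a genotype if it had more than 50 counts over its 6 libraries, and it was called MB-enriched or HS-enriched at an adjusted p of at most 0.05.

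Of the 58 protocadherins, 56 passed this filter in WT and 53 in the mutant. In WT, pcdha8l lay just inside it with 69 counts and pcdh2ac outside with 8, and pcdh2ab11 had 0 counts in all 12 libraries. In the mutant, pcdh2ab12 lay just inside with 55 counts and pcdh2ab5 just outside with 50. Of the values of the pcdh1 cluster, 100.0% were not whole numbers, and of the pcdh2 cluster 92.4%, against 40.5% for the other protocadherins and 36.9% for all tested genes. Reads that fit several transcripts are split by the estimation, so the value of any single clustered gene is less certain than that of its cluster. Among the others, PCDH11X, PCDH19, PCDH20, pcdhb, PCDH1 (ENSDARG00000062720), and PCDH18 (ENSDARG00000089805) had 100.0% of values not whole. For PCDH15 (ENSDARG00000098257) the share was 91.7%. Values of these single genes are uncertain in the same way. In each genotype, 8 tested genes, all clustered, had at most 50 counts in the 3 HS libraries together and would not have passed the filter without their MB counts, so that a value on the MB side is in part fixed for them. The counts of MB-enriched genes in the main fits, for the family and for each named cluster that holds such genes, are therefore also given without them. Counts from the alternative fits, counts between genotypes, and counts of genes whose libraries do not overlap still include them.

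In WT, protocadherin mRNAs lay mostly on the MB side. The log2 MB/HS value was above 0 for 49 of 56, with a median of 0.72 against 0.08 for all genes. The test called 18 MB-enriched and 1, pcdh2ab2, HS-enriched, where 12.4% and 13.3% of all 23733 genes were called on these sides. Every MB library was above every HS library for 25 of 56, against 26.0% of all genes. Without WT HS replicate 1, 35 were MB-enriched and 1 HS-enriched, where 29.8% and 28.0% of all genes were called. With the replicate number as a block, 26 were MB-enriched and 3 HS-enriched (pcdh2ab2, pcdh2ab8, and PCDH11X), where 21.4% and 17.0% of all genes were called. Of the 48 genes with more than 50 counts in HS, 16 were MB-enriched, with a median of 0.70. Neuron markers lay mostly on the other side, with 7 of 11 HS-enriched and 3 MB-enriched.

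In the pcdh1 cluster, 8 of 21 genes were MB-enriched in WT and none HS-enriched, with a median of 0.75. The largest enrichments were those of pcdh1g31, pcdh1g9, and pcdh1gc5. The level of pcdh1g9 was 17.9, 18.9, and 22.1 CPM in the HS libraries and 32.9, 52.7, and 53.8 CPM in the MB libraries. The groups do not overlap, and the log2 enrichment was 1.25 (SE 0.24, adjusted p = 0.0146, edgeR). For pcdh1g31, the HS libraries gave 1.98 to 2.97 CPM and the MB libraries 4.98 to 6.64 CPM, an enrichment of 1.25 (SE 0.25, adjusted p = 0.0149). For pcdh1gc5, HS gave 7.99 to 10.6 CPM and MB 15.65 to 23.45 CPM, an enrichment of 1.12 (SE 0.24, adjusted p = 0.0174). The remaining 5 calls, pcdh1g22 and pcdh1g33 among them, lay at 0.74 to 1.07. The lowest value of the cluster was that of pcdh1a6, at -0.91 (SE 0.52), which was not called.

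In the pcdh2 cluster, 3 of 12 tested genes were MB-enriched in WT and 1 HS-enriched, with a median of 0.65, and 2 of the 5 with more than 50 counts in HS were MB-enriched. The level of pcdh2g28 was 55.4, 37.0, and 32.8 CPM in HS and 90.2, 110.1, and 118.6 CPM in MB. All MB libraries were above all HS libraries, and the enrichment was 1.36 (SE 0.26, adjusted p = 0.0134). For pcdh2ab9, HS gave 31.9, 22.7, and 21.1 CPM and MB 55.7, 48.9, and 50.5 CPM. Here too the groups are apart, at 1.04 (SE 0.22, adjusted p = 0.0167). The third call was pcdh2aa1, at 0.0958 to 0.202 CPM in HS and 0.398 to 0.425 CPM in MB, a value of 1.47 (SE 0.35, adjusted p = 0.0249). It had 24 counts in HS and 126 in MB, and passed the filter only through MB. Outside both named clusters, pcdha8l had 3 counts in the HS libraries together and 66 in MB, a ratio of 11.2 with a 95% counting interval of 3.68 to 55.9. It passed the filter only through its MB counts, and its fitted enrichment of 3.34 (adjusted p = 0.021) belongs to that choice.

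**Figure D1:**
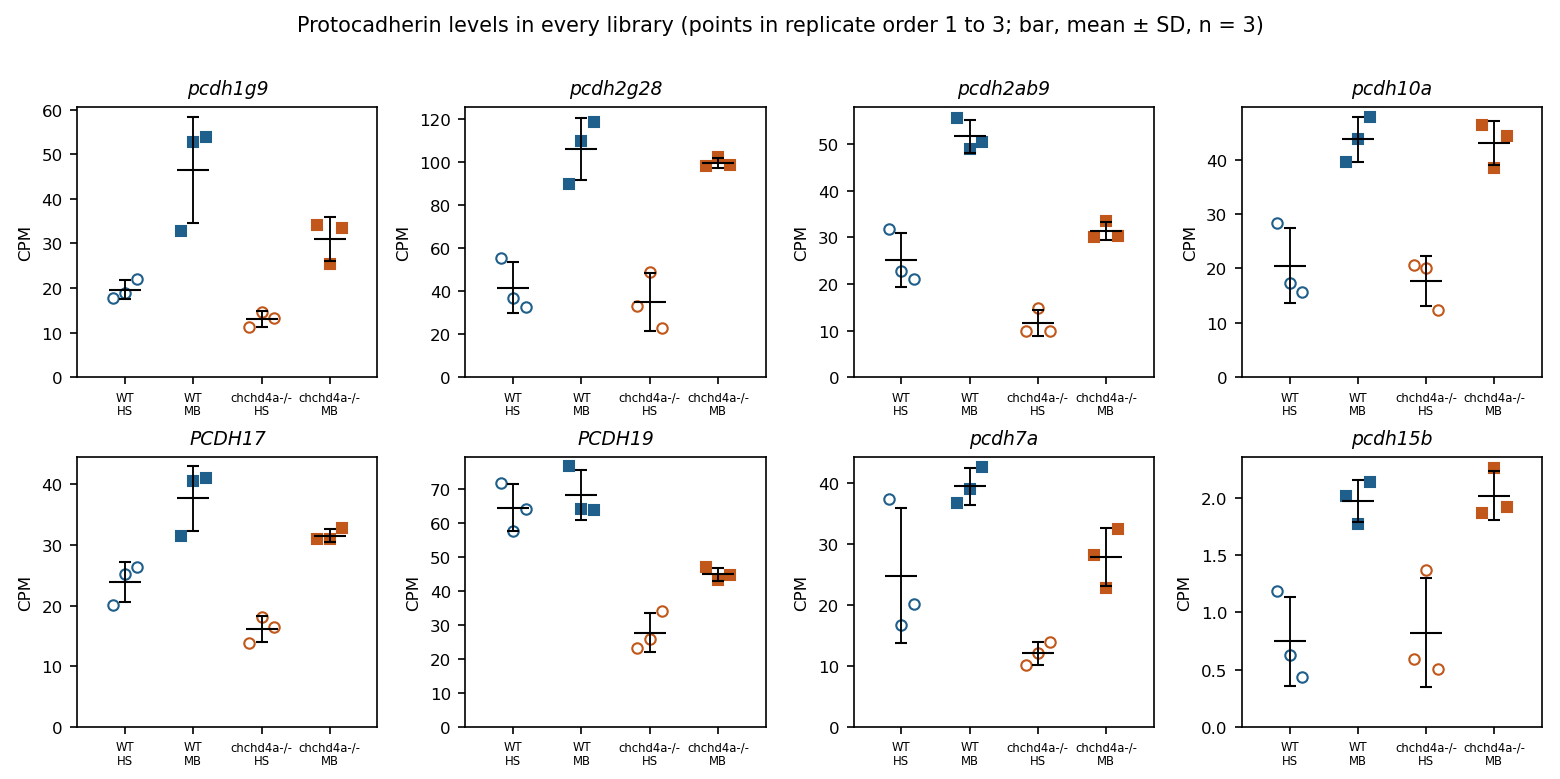
Level of 8 protocadherins in CPM (vertical axes, from 0) in the 12 libraries, by fraction and genotype on the horizontal axes; points are libraries in replicate order, bars the mean ± SD of 3. For pcdh2g28, the WT MB libraries sit at 90.2 to 118.6 CPM and the WT HS libraries at 32.8 to 55.4 CPM, while for PCDH19 the WT fractions overlap and the mutant libraries are lower.

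Among the other protocadherins, 6 of 22 were MB-enriched in WT and none HS-enriched, with a median of 0.67. They include genes of the hair cell and of neural development. One PCDH15 row (ENSDARG00000008127, pcdh15b in the study's supplement), for a tip link protein, was at 1.18, 0.623, and 0.433 CPM in HS and 2.01, 1.77, and 2.13 CPM in MB. Its enrichment, 1.45 (SE 0.38, adjusted p = 0.0323), was the largest of this group, with no overlap between fractions. The second PCDH15 row (ENSDARG00000098257, pcdh15a in the supplement) was at 1.43 to 1.83 CPM in HS and 2.83 to 3.05 CPM in MB, an enrichment of 0.89 (SE 0.22, adjusted p = 0.0281). The third row with this name (pcdh15b, ENSDARG00000071772) gave 1.73 to 2.86 CPM in HS and 2.15 to 2.90 CPM in MB, overlapping ranges, with a value of 0.18 (SE 0.27). The 5 hair cell markers found in the tables had counts, and summed to 26.7 to 34.6 CPM in WT HS.

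Protocadherin 10, which binds the WAVE complex of actin regulators in mammals, has 2 rows. The row called pcdh10a in the supplement (ENSDARG00000099729) was at 28.4, 17.4, and 15.7 CPM in HS and 39.5, 43.8, and 47.9 CPM in MB, an enrichment of 1.10 (SE 0.26, adjusted p = 0.0247). The other (PCDH10, ENSDARG00000102824) was at 25.4 to 27.9 CPM in HS and 43.5 to 51.6 CPM in MB, an enrichment of 0.84 (SE 0.17, adjusted p = 0.0161). Both are apart between fractions in every library. The pcdh8 row ENSDARG00000006467, of the paraxial protocadherin type that acts in somite and neural tissue, was enriched at 1.01 (SE 0.24, adjusted p = 0.0249), and 1 of the 2 PCDH18 rows (ENSDARG00000089805) at 0.67 (SE 0.20, adjusted p = 0.0426).

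Other genes of this group did not pass the test in WT. PCDH19, a gene of epilepsy in humans and of columns of neurons in the zebrafish tectum, was at 71.7, 57.8, and 64.2 CPM in HS and 76.9, 64.1, and 63.9 CPM in MB. The fractions overlap, with a value of 0.09 (SE 0.19). PCDH17 was at 20.2 to 26.3 CPM in HS and 31.4 to 41.1 CPM in MB, without overlap, but at an adjusted p of 0.0522 (value 0.66, SE 0.21). PCDH12, known from endothelial cells, had 0.62 (SE 0.35), pcdh9 0.72 (SE 0.46), pcdh7a 0.68 (SE 0.31), PCDH7 0.07 (SE 0.42), PCDH20 0.16 (SE 0.26), and pcdh11 (ENSDARG00000105441) 0.55 (SE 0.29). PCDH7, PCDH20, and PCDH19 lie near the median of all genes, and the rest above it.

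The number of calls in WT turned on single libraries more than the direction did. With WT HS replicate 1 left out, 19 clustered and 16 other protocadherins were MB-enriched, with medians of 0.84 and 0.91. Without WT HS replicate 2, MB replicate 2, or MB replicate 3, none were MB-enriched in either group, and without WT HS replicate 3 there were 4 and 0. At an unadjusted p under 0.05 (edgeR), the first of these settings placed 14 clustered and 7 other genes on the MB side. The second placed 13 and 5, and the third 10 and 5. The share of all genes called in these fits is not given here, so the lack of calls is not read as particular to protocadherins. Without WT MB replicate 1, the other protocadherins had 2 calls.

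**Figure D2:**
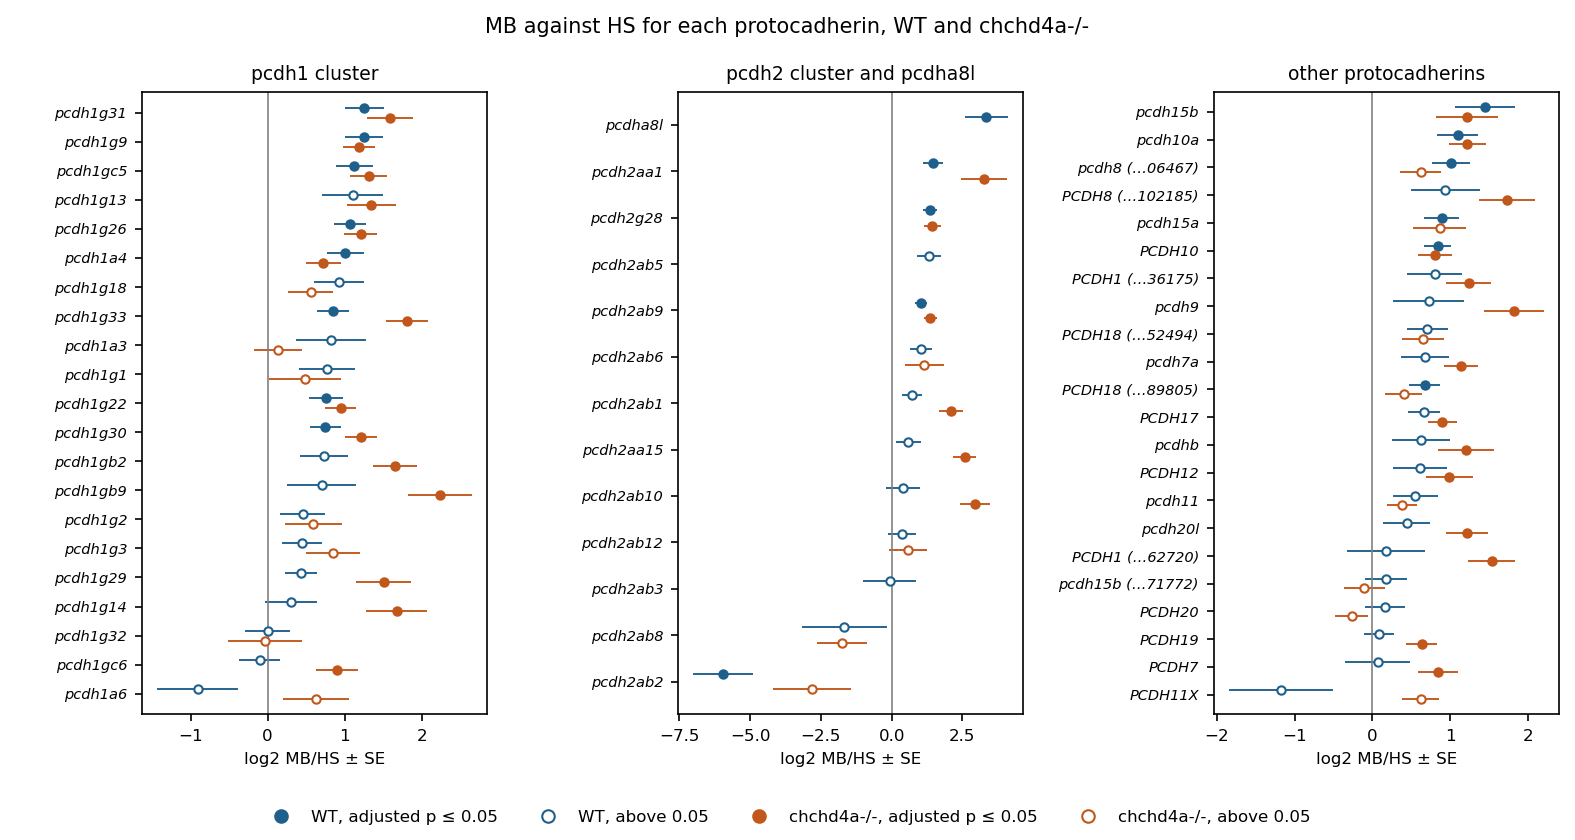
The log2 MB/HS value of each tested protocadherin (horizontal axes, with SE from the edgeR fit) in WT (blue) and chchd4a-/- (orange), for the pcdh1 cluster, the pcdh2 cluster with pcdha8l, and the other genes; filled points have an adjusted p of at most 0.05. Most points lie right of 0 in both genotypes, and pcdh2ab2 stands alone on the far left in WT at -5.95.

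Of the 34 clustered genes tested in WT, 6 had a value below 0, and 1 of them was called. The level of pcdh2ab2 was 77.8, 11.9, and 13.0 CPM in the WT HS libraries and 1.12, 0.319, and 0.219 CPM in the WT MB libraries. Every HS library was above every MB library, and the log2 value of -5.95 (SE 1.06, adjusted p = 0.0116) was among the most HS-enriched in WT, for which reason the gene was already known when it was chosen here. Without WT HS replicate 1 the value was -4.51 (SE 0.59, adjusted p = 0.00136). In mutant HS the same gene was at 0, 0.0461, and 3.89 CPM, and in mutant MB at 0.120, 0.258, and 0.178 CPM. The mutant value of -2.82 (SE 1.38, adjusted p = 0.13) rests on HS replicate 3 alone, without which it was 2.77, with the sign reversed.

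A second pcdh2 gene, pcdh2ab8, was at 131.7, 27.9, and 33.3 CPM in WT HS and at 57.3, 0.411, and 2.55 CPM in WT MB. MB replicate 1 was far above the other MB libraries, and the value was -1.67 (SE 1.50, adjusted p = 0.429). With the replicate number as a block, it was HS-enriched at -3.57 (adjusted p = 0.0253). In the mutant, pcdh2ab8 was at 0.153, 0.230, and 2.49 CPM in HS and at 0.189, 0.383, and 0.282 CPM in MB. It was therefore low in every mutant library but 1, HS replicate 3, the library that also stood out for pcdh2ab2.

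A further pair of genes shared the high level in replicate 1 of WT. The level of pcdh1a6 was 233.9, 69.6, and 73.9 CPM in WT HS, 96.8, 52.5, and 51.0 CPM in WT MB, 6.95, 8.51, and 23.9 CPM in mutant HS, and 25.2, 15.1, and 22.9 CPM in mutant MB. A non-clustered gene, PCDH11X (ENSDARG00000098652, pcdh11 in the supplement), was at 82.9, 17.4, and 18.1 CPM in WT HS, 27.9, 11.8, and 12.5 CPM in WT MB, 3.97, 4.59, and 6.57 CPM in mutant HS, and 7.69, 8.41, and 8.23 CPM in mutant MB. In WT each was higher in HS than in the MB library of the same number, and in the mutant PCDH11X was lower in each. PCDH11X had a WT value of -1.17 (SE 0.67, adjusted p = 0.223), which became -0.88 (adjusted p = 0.03885) with the replicate number as a block and -0.03 without HS replicate 1. In the mutant the block made calls of PCDH11X, from 0.62 (adjusted p = 0.0649) to 0.65 (adjusted p = 0.0236), and of pcdh1a6, from 0.63 (adjusted p = 0.261) to 0.80 (adjusted p = 0.0301), both on the MB side. These 4 genes were put together after their values were seen.

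**Figure D3:**
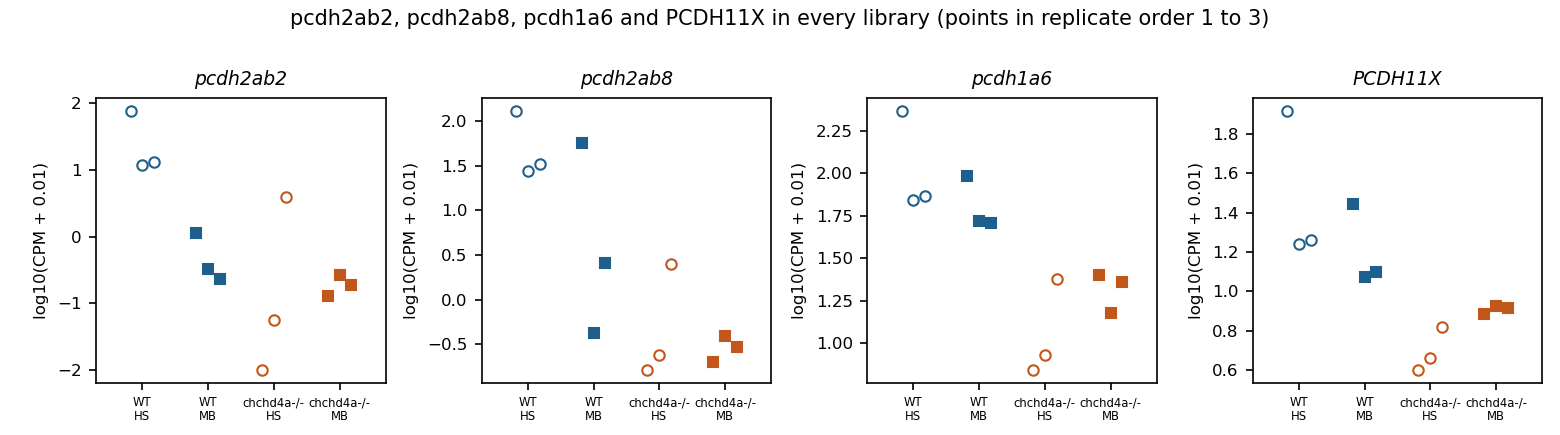
Level of pcdh2ab2, pcdh2ab8, pcdh1a6, and PCDH11X in the 12 libraries, as log10 of CPM plus 0.01 (vertical axes), by fraction and genotype; points are libraries in replicate order. In each panel the highest library is WT HS replicate 1, from 77.8 CPM for pcdh2ab2 to 233.9 CPM for pcdh1a6, and all mutant libraries lie below all WT HS libraries.

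WT HS replicate 1 was high for more of the family. Its level was at least 2 times the mean of HS replicates 2 and 3 for 16 of 53 protocadherins, or 30.2%, and for 19.3% of all genes. The median ratio was 1.35 for protocadherins and 0.98 for all genes. The ratio was 6.26 for pcdh2ab2, 4.67 for PCDH11X, 4.31 for pcdh2ab8, and 3.26 for pcdh1a6. Replicate 1 of WT MB was at least 2 times the mean of MB replicates 2 and 3 for 3 of 53, or 5.66%, and for 2.52% of all genes.

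Summed over all 58 rows, the protocadherins took 1032, 532, and 558 CPM in WT HS and 874, 819, and 869 CPM in WT MB, so that the sums overlap. The 4 genes just described took 526, 127, and 138 CPM of the HS sums and 183, 65.1, and 66.3 CPM of the MB sums. The other 54 took 506, 405, and 419 CPM in HS and 691, 754, and 803 CPM in MB, an order that leaving out genes high in HS favours and that is given as a description. Counts added up over a whole cluster, which do not depend on how reads were split among its genes, gave a WT log2 value of 0.21 (SE 0.28) for pcdh1 and 0.13 (SE 0.44) for pcdh2.

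**Figure D4:**
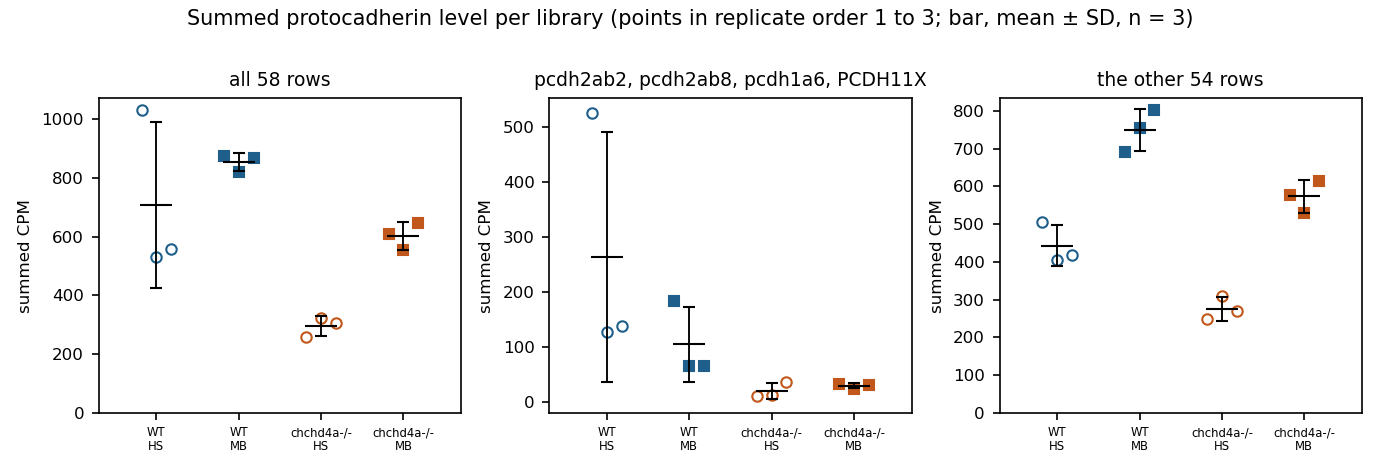
Summed CPM (vertical axes) of all 58 protocadherins, of pcdh2ab2, pcdh2ab8, pcdh1a6, and PCDH11X, and of the other 54, in the 12 libraries; points are libraries in replicate order and bars the mean ± SD of 3. The point of WT HS replicate 1 at 1032 CPM in the left panel comes down to 506 CPM in the right panel, from which the genes highest in that library were left out.

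In the mutant, more protocadherins passed the test on the MB side. The value was above 0 for 48 of 53, with a median of 1.14 against -0.01 for all genes. The test called 34 MB-enriched and none HS-enriched, where 17.0% and 20.0% of all 23854 genes were called, and no protocadherin was HS-enriched at an unadjusted p under 0.05 either. DESeq2 called 37 and 0, where 20.3% and 21.6% of all genes were called. Of the 45 genes with more than 50 counts in HS, 28 were MB-enriched, with a median of 0.90. Every MB library was above every HS library for 40 of 53, against 28.9% of all genes.

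In the pcdh1 cluster, 14 of 21 genes were MB-enriched in the mutant, with a median of 1.18, and 12 of 19 with a median of 0.95 without pcdh1gb9 and pcdh1g14, which passed the filter through MB. The level of pcdh1gb9 was 0.0763, 0.200, and 0.113 CPM in HS and 0.583, 0.744, and 0.638 CPM in MB, a value of 2.23 (SE 0.41, adjusted p = 0.00421). For pcdh1g33, HS gave 1.85 to 3.36 CPM and MB 8.33 to 9.90 CPM, an enrichment of 1.81 (SE 0.28, adjusted p = 0.00203). For pcdh1g14, HS gave 0.0954 to 0.215 CPM and MB 0.514 to 0.707 CPM, a value of 1.67 (SE 0.39, adjusted p = 0.0113). All 3 genes are apart between fractions. In WT, pcdh1g33 was called at 0.84, and pcdh1gb9 and pcdh1g14 had 0.70 and 0.31, not called.

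In the pcdh2 cluster, 6 of 10 genes were MB-enriched in the mutant, with a median of 1.403. Of the 4 with more than 50 counts in HS, 2 were MB-enriched, pcdh2g28 and pcdh2ab9, and the median of the 4 was -0.20, so that the cluster's median rests on genes with few counts. For pcdh2g28, HS gave 33.3, 49.1, and 22.7 CPM and MB 98.2, 102.4, and 98.8 CPM, an enrichment of 1.44 (SE 0.29, adjusted p = 0.00594), against 1.36 in WT. For pcdh2ab9, HS gave 9.91, 14.8, and 9.98 CPM and MB 30.0, 33.6, and 30.3 CPM, an enrichment of 1.37 (SE 0.22, adjusted p = 0.00262). The largest values belonged to 4 genes that passed the filter only through MB. The 3 HS libraries together held 6 counts for pcdh2ab10 (2.94, SE 0.54), 11 for pcdh2aa15 (2.58, SE 0.40), and 11 for pcdh2ab1 (2.10, SE 0.43). For pcdh2aa1 they held 3 against 58 in MB, a ratio of 10.9 with a 95% counting interval of 3.55 to 54.4.

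Of the other protocadherins, 14 of 22 were MB-enriched in the mutant, with a median of 0.88. For pcdh9, HS gave 0.859, 1.49, and 0.565 CPM and MB 3.51, 4.56, and 2.80 CPM, an enrichment of 1.82 (SE 0.39, adjusted p = 0.00716). PCDH8 (ENSDARG00000102185) was enriched at 1.73 (SE 0.36, adjusted p = 0.00654), and 1 of the 2 PCDH1 rows (ENSDARG00000062720) at 1.54 (SE 0.30, adjusted p = 0.00518). PCDH19 was at 23.3, 25.9, and 34.2 CPM in HS and 47.1, 43.2, and 44.8 CPM in MB, and was called at 0.64 (SE 0.20, adjusted p = 0.0333). The pcdh10a row was called at 1.22, PCDH10 at 0.80, PCDH17 at 0.90, pcdh7a at 1.14, PCDH7 at 0.85, PCDH12 at 0.99, and the first PCDH15 row at 1.21. PCDH20 (-0.27, SE 0.21) and the third PCDH15 row (-0.10, SE 0.27) had values below 0 and were not called. The call count of this group was 7 without mutant HS replicate 1, 9 without mutant MB replicate 1, and 14 with all libraries.

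Of the 53 genes tested in both genotypes, 14 were MB-enriched in both, 3 in WT only, and 20 in the mutant only. Over all genes too, more were MB-enriched in the mutant (17.0%) than in WT (12.4%), and their overlap was not counted. The calls in a single genotype do not show that the ratio differed between genotypes. In the test of the difference itself, 0 of 53 protocadherins passed in either direction, and 0 of all 23452 genes did (0% and 0%). At an unadjusted p under 0.05, the mutant ratio was higher for 12 protocadherins and lower for 0, where 1964 and 1410 genes stood among all. DESeq2 called 0 protocadherins, where 2.40% of all genes were called higher and 0.994% lower, and the replicate block called 1 protocadherin higher, where 2.95% of all genes were. The median difference was 0.40 for the family and -0.07 for all genes, and 0.18 for the family without WT HS replicate 1. The counts summed per cluster gave a difference of 0.84 (SE 0.37) for pcdh1 and 1.32 (SE 0.52) for pcdh2, with mutant values of 0.98 (SE 0.23) and 1.37 (SE 0.25). In WT HS replicates 1 to 3, the clusters summed to 352.1, 188.2, and 204.9 CPM for pcdh1 and 299.3, 101.5, and 101.3 CPM for pcdh2. Both sums were highest in replicate 1, and the summed differences without that library are not given here.

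Between genotypes, the levels in HS were lower in the mutant. In the HS libraries, 51 of 53 protocadherins had a value below 0, with a median of -0.87 against 0.06 for all genes. The test called 24 lower and 0 higher in the mutant, where 12% and 7.25% of all genes were called. Clustered genes with at most 50 counts in mutant HS are among the calls and are named below. Every mutant HS library was below every WT HS library for 28 of 53, against 17.2% of all genes. Since these are whole larvae, fewer cells that express a gene and less of its RNA per cell cannot be told apart. Neuron markers moved with this result: 7 of 11 found were called lower in mutant HS, and their summed level was 5339 to 5937 CPM in WT HS and 1534 to 3500 CPM in mutant HS. None of the 11 was at 0. Muscle markers summed to 29170 to 36130 CPM in WT HS and 31960 to 84750 CPM in mutant HS. Their part in the result was not tested.

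Of the clustered genes, 17 of 31 were called lower in mutant HS, with a median of -1.01. Of the 31, 8 had at most 50 counts in the mutant HS libraries together and passed the mutant filter through MB. A low level in mutant HS is in part fixed for them. Among these, pcdh1gb9, pcdh1g14, pcdh2aa15, pcdh2ab1, pcdh2ab10, and pcdh2aa1 were called lower. The median without such genes is not given here. Among the largest were 3 of the genes highest in WT HS replicate 1. For pcdh2ab8 the value was -6.06 (SE 1.59, adjusted p = 0.0199), for pcdh2ab2 -4.69 (SE 1.36, adjusted p = 0.0302), and for pcdh1a6 -3.26 (SE 0.57, adjusted p = 0.00424). Without WT HS replicate 1 the values were -4.96 (adjusted p = 0.045), -3.21 (adjusted p = 0.0937), and -2.42 (adjusted p = 0.0055), so that pcdh2ab2 no longer passed. The value of pcdh1gc6, from 16.04, 10.2, and 8.655 CPM in WT HS to 2.35, 2.20, and 3.60 CPM in mutant HS, was -2.09 (SE 0.28, adjusted p = 0.00248), and the groups are apart.

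Rare pcdh2 genes were also called. For pcdh2aa15, WT HS gave 0.831, 0.348, and 0.274 CPM and mutant HS 0.0573 to 0.0646 CPM, a value of -2.88 (SE 0.48, adjusted p = 0.00383). For pcdh2ab10, WT HS gave 0.607, 0.366, and 0.101 CPM and mutant HS 0.0162 to 0.0461 CPM, a value of -3.26 (SE 0.73, adjusted p = 0.00982). For pcdh2ab1, WT HS gave 0.160 to 0.330 CPM and mutant HS 0.0485 to 0.0763 CPM, a value of -1.97 (SE 0.41, adjusted p = 0.00736). All mutant libraries were below all WT libraries for these 3 genes, an order that the filter in part fixes. For pcdh2aa1, WT HS held 24 counts and mutant HS 3, a ratio of 9.25 with a 95% counting interval of 2.81 to 48.0. For pcdh2g28 the value was -0.25 (SE 0.28, adjusted p = 0.545), and its HS libraries overlap between genotypes.

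Of the other protocadherins, 7 of 22 were called lower in mutant HS, with a median of -0.53. PCDH11X had -2.96 (SE 0.57, adjusted p = 0.00524), and -1.78 (adjusted p = 0.00487) without WT HS replicate 1. The gene pcdhb, at 0.769 to 1.63 CPM in WT HS and 0.210 to 0.430 CPM in mutant HS, had -1.72 (SE 0.38, adjusted p = 0.00927). PCDH19 was lower in each library, from 57.8 to 71.7 CPM in WT HS to 23.3 to 34.2 CPM in mutant HS, a value of -1.22 (SE 0.20, adjusted p = 0.00348) and -1.09 (adjusted p = 0.00295) without WT HS replicate 1. The PCDH1 row ENSDARG00000062720 (-1.55), pcdh9 (-1.40), PCDH7 (-1.21), and pcdh7a (-1.03) were called as well, but without WT HS replicate 1 each had an adjusted p above 0.05 (0.145, 0.271, 0.195, and 0.0763). The first 2 PCDH15 rows had values of 0.19 (SE 0.42) and 0.04 (SE 0.30).

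**Figure D5:**
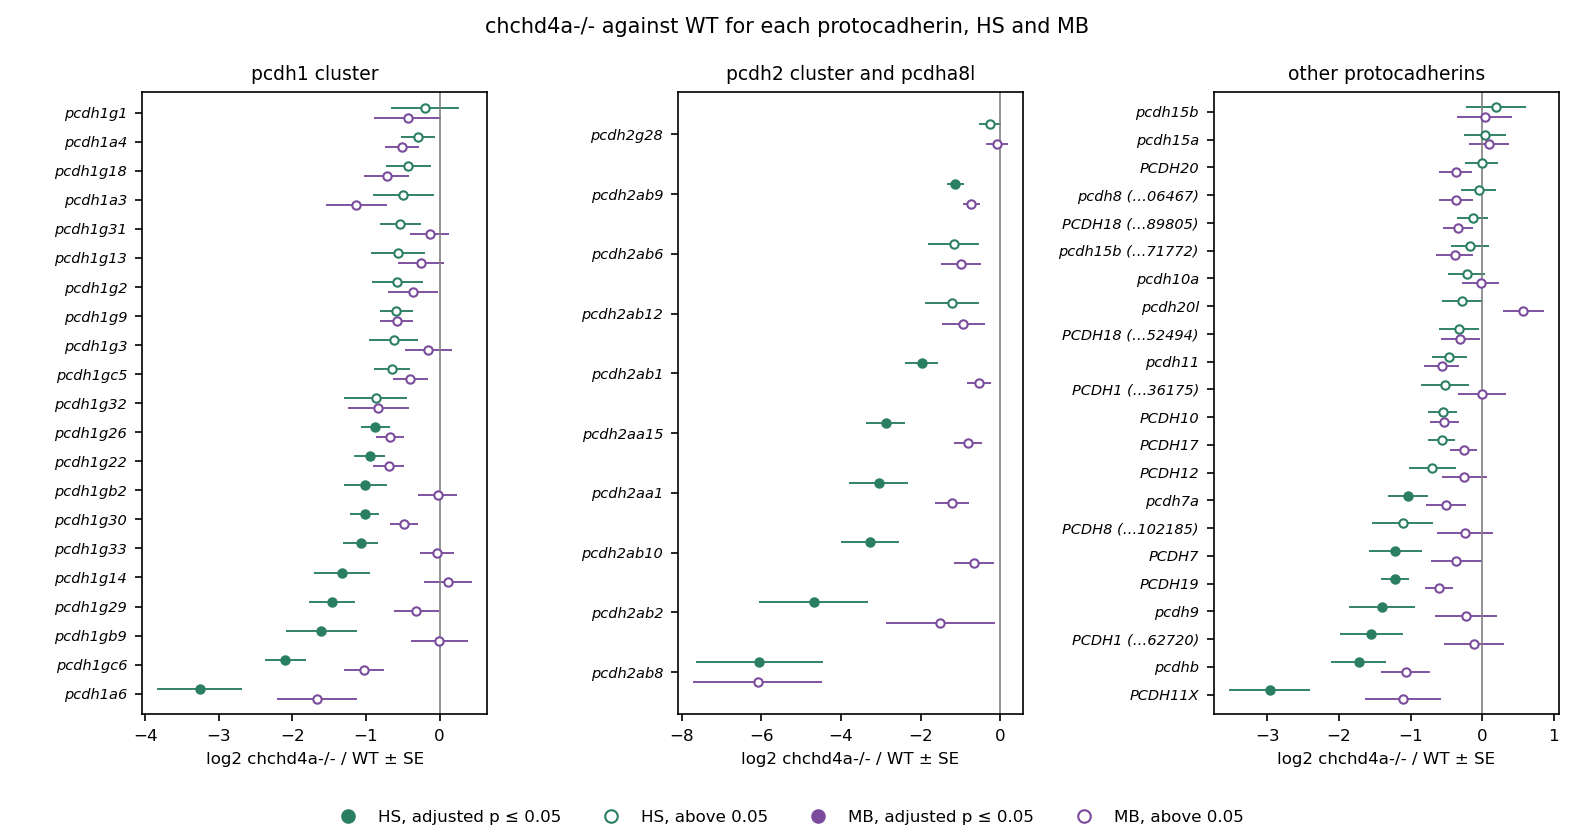
The log2 ratio of chchd4a-/- to WT for each protocadherin tested in both genotypes (horizontal axes, with SE from the edgeR fit of 12 libraries), in HS (green) and MB (purple); filled points have an adjusted p of at most 0.05. In HS 24 points are filled and all lie left of 0, down to -6.06 for pcdh2ab8, and in MB none is filled.

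These calls depend on the fit and on the scaling. In a fit of the 6 HS libraries alone, the filter saw HS counts only, so that 23 clustered and 22 other protocadherins were tested. Of these, 0 clustered and 0 other protocadherins were called, with 13 and 8 lower at an unadjusted p under 0.05. The share of all genes called in that fit is not given here. DESeq2 on all 12 libraries called 27 lower, where 15.6% of all genes were. With libraries scaled by spike-ins, all genes had a median of 1.82, on the mutant side, and 2 clustered and 0 other protocadherins were called lower, and 1 and 7 higher. Relative to all genes, the median of the clustered genes was then -0.95 and that of the others -0.48. A change of scaling shifts all genes by nearly the same amount. These relative medians therefore had to stay close to those with TMM and are no check of them. Leaving out WT HS replicate 1, 17 were called lower, where 8.40% of all genes were, with a median of -0.65. The other protocadherins had 4 calls without it, 4 without mutant HS replicate 3, and 3 without mutant HS replicate 1, and the clustered genes 11 without the last.

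In MB, no protocadherin passed the test between genotypes. The value was below 0 for 49 of 53, with a median of -0.40 against -0.03 for all genes. The test called 0 higher and 0 lower, where 0.0128% and 0.0256% of all genes were called. At an unadjusted p under 0.05 it placed 17 lower and 0 higher. The share of all genes at that unadjusted limit is not given here, so the 17 cannot be set against the percentages above. DESeq2 called 4 lower, all clustered, where 1.38% of all genes were. The largest value was that of pcdh2ab8, at -6.09 (SE 1.62, adjusted p = 0.185), from the 57.3, 0.411, and 2.55 CPM given above to 0.189 to 0.383 CPM. PCDH19, at 63.9 to 76.9 CPM in WT MB and 43.2 to 47.1 CPM in mutant MB, had a value of -0.60 (SE 0.19, adjusted p = 0.277), with no overlap between genotypes.

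Other cadherins lay on the same side. Of 38 cadherins outside the protocadherins tested in WT, 17 were MB-enriched and 0 HS-enriched, with a median of 0.78, and in the mutant 20 of 39 were MB-enriched and 1 HS-enriched, with a median of 0.84. In mutant HS, 13 of 38 were called lower than in WT and 1 higher. Of 16 genes found whose products act on protocadherins or bind them, 4 were MB-enriched in WT and 0 HS-enriched, with a median of 0.61, and 8 were MB-enriched and 1 HS-enriched in the mutant. Among them, named after their values were seen, adam10a, for a protease that sheds the extracellular part in mammals, was enriched at 1.05 (SE 0.23, adjusted p = 0.0186) in WT. CTCF, the nuclear protein of promoter choice, had 0.01 (SE 0.19, adjusted p = 0.982). Of the 5 genes found for CTCF and cohesin, 4 had a WT value above 0 and 1 below, with a median of 0.70. The 1 called was SMC3, MB-enriched at 0.96 (SE 0.20, adjusted p = 0.0164). Odorant and trace amine receptors, also membrane proteins of neurons, summed to 51.1 to 58.9 CPM in WT HS and 30.7 to 45.2 CPM in WT MB. Of 251 rows found, only 68 had enough counts to be tested in WT, and their levels were low. The median value of these 68 was 0.15, with 2 MB-enriched and 7 HS-enriched. In the mutant, 0 of 52 were MB-enriched and 6 HS-enriched, with a median of -0.31. The HS-enriched counts lie below the shares of all genes given above. The list thus lacked the MB calls of the cadherins, without an excess of HS calls.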

How the data were processed

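The authors estimated reads per transcript with Salmon 1.4.0 on GRCz11 (danRer11) and deposited expected counts per gene, unscaled, of 31778 genes and 92 spike-ins. All 12 columns were used, in 4 groups of 3. Symbols came from the reference table for 28790 genes and from the study's supplement for 351 more. Expected counts were rounded and tested with edgeR 4.0.16 (R 4.3.3), TMM scaling, quasi-likelihood F tests, a prior count of 0.125, and p adjusted after Benjamini and Hochberg across every gene tested. The SE is the size of the log2 value over the square root of its F. MB was compared with HS in a fit of 6 libraries per genotype, and genotypes in a fit of 12 (23452 genes). On simulated data, the tests of MB against HS and of the genotypes in HS recovered most of the changed genes. The planted changes were larger than most protocadherin values, and no gene with a low mean count was changed. The simulated spread followed the fitted trend, and no library was made to stand apart as WT HS replicate 1 did. The share of real changes recovered in these data was therefore not measured. The test of the difference and that of the genotypes in MB were not simulated. That libraries came from separate pools is not stated in the labels, so p measures the spread between libraries.

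Members and lists were chosen with earlier results of these data known. Named genes were pcdh2ab2, the 3 largest called values in each direction, class, and genotype, the 3 highest levels per class, up to 10 called genes between genotypes, those next to the filter, and other protocadherins of known role. Symbols of the lists found no row for 5 of 16 neuron, 4 of 10 muscle, and 2 of 7 hair cell markers.

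Across 23452 genes, deviations of equal replicate numbers in HS and MB correlated at 0.57, 0.471, and 0.398 in WT and 0.274, 0.366, and 0.506 in the mutant. Numbers were therefore taken to pair fractions within a genotype, from the data and not the labels. In WT, however, HS replicate 3 correlated at 0.438 with MB replicate 2, and HS replicate 2 at 0.267 with MB replicate 3. Replicates 2 and 3 of WT are thus not clearly told apart, and the WT replicate block rests on this pairing. Between genotypes, equal numbers correlated at -0.188 to 0.322 and pair nothing. Alternatives were DESeq2 1.42.0, other scalings and filters, the replicate block, other fits, each library left out, an adjusted p of 0.01, and a prior count of 2. Counting intervals cover counting error only.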

Additional observations from a re-analysis of the deposited data

Results flagged for a closer look

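The MB/HS ratio of PCDH11X went in opposite directions in the genotypes. Each WT HS library was above the WT MB library of the same number, and each mutant HS library was below its MB library. The log2 difference, mutant minus WT, was 1.86 (SE 0.75) and did not pass the test of the difference (adjusted p = 0.282). Without WT HS replicate 1 it was 0.71 (adjusted p = 0.522).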

How the results depend on the processing

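Among the values tallied here, directions held more widely than calls. Single genes were tallied where a named gene was called in the main fit, and pcdh2ab2, pcdh2ab8, pcdh1a6, and PCDH11X also where not called. Genes chosen for a call are apt to keep their direction, so the tally does not describe the whole family. Of the alternative values of these genes and of summed clusters, 1002 kept their direction and side of the threshold, 220 lost the call, 15 gained it, 9 moved, and 2 reversed. Both reversals came without mutant HS replicate 3, at 2.77 for pcdh2ab2 and 0.50 for pcdh2ab8, where leaving out 1 library at a time gave -3.40 to 2.77 and -2.27 to 0.50. Library totals in place of TMM moved the median of all genes to 0.58 in WT, 0.81 in the mutant, 0.13 in HS, and 0.30 in MB, and spike-in totals to 2.62, 1.92, 1.82, and 1.08. Calls under these scalings are read against those medians. The causes of the shifts below were not tested.

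In WT, MB-enriched clustered genes numbered 0 at an adjusted p of at most 0.01, 23 with library totals, 31 with spike-in totals, 19 without replicate 1 of both fractions, and 0 to 19 without 1 library. For the other protocadherins the same settings gave 0, 15, 21, 18, and 0 to 16, and no filter gave 3. HS-enriched clustered genes numbered 0 at 0.01, 2 with the replicate block, 3 without replicate 1 of both fractions, and 0 to 2 without 1 library. The other protocadherins numbered 1 with the block and 1 without replicate 1 of both. Without replicate 1 of both fractions, 8413 of all 23143 genes were MB-enriched and 7806 HS-enriched. Without WT HS replicate 1, 29.8% and 28.0% of all genes were, and with the block 21.4% and 17.0%. Larger call counts in these settings thus go with more calls over all genes. Where no share stands beside a count in this and the next paragraph, the share of all genes is not given here. Such counts are not read as particular to protocadherins. In the mutant, MB-enriched other protocadherins numbered 7 at 0.01, 22 with library totals, 22 with spike-in totals, and 7 to 17 without 1 library, and their median above that of all genes ran from 0.79 to 1.12. In the difference between genotypes, the replicate block called 1 other protocadherin higher, where 2.95% of all genes were called, and their median above all genes was 0.12 without replicate 1 of both WT fractions.

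In mutant HS, clustered genes called lower numbered 9 of 21 tested with 10 counts in every library. They numbered 0 of 23 tested in the 6-library fit and 0 of 23 with the replicate block. The count was 11 at 0.01, 2 with spike-in totals, which called 1 higher, and 11 to 18 without 1 library. Other protocadherins called lower numbered 0 in the 6-library fit, 3 at 0.01, 0 with the block, 0 with spike-in totals, which called 7 higher, and 3 to 8 without 1 library. In mutant MB, clustered genes called lower numbered 4 with DESeq2, 3 with the replicate block, and 1 with spike-in totals. The replicate block between genotypes pairs samples that share only a number. Alternatives chosen after seeing the data were the counts without genes that passed the filter through MB, given in the text, and pcdhb counted with the clustered genes, which left both medians of the clustered genes above that of all genes.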
